A study of Glycine max with 11 samples.

Results

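Among the genes expressed throughout late seed maturation in soybean (Glycine max, cultivar BRS284), 150 lay lowest in seeds that had been dried artificially after harvest. They were chosen by their own read counts: a gene entered the ranking when it had at least 5 CPM (the count of a gene divided by the total of its library, times 1000000) in each of the 9 libraries of freshly harvested seeds. Genes were then ranked by the lowest fresh library minus the higher of the 2 dried libraries, on the scale of log2(CPM + 1), and the first 150 were taken. This gave 150 members of 10194 genes that met the CPM minimum and of 56044 genes in all. The low level after drying is therefore what defined the members and is described below without a test.

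The seeds dried at stage 7.2 (2 libraries) had been held at 40% relative humidity and 30 °C until 10% moisture on a dry weight basis. Seeds frozen fresh gave 1 library each at stages 7.1, 7.3, 8.1, 8.2 and 8.3 and 2 libraries each at stages 7.2 and 9, where stage 9 is the mature seed. All libraries came from whole seeds of field-grown BRS284 plants, and the study's methods describe seeds collected from many plants of a single crop, so a library is a pool. In such bulk samples, fewer cells of a type and less of a transcript per cell cannot be told apart.

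Soybean seeds normally lose water on the plant, late in maturation, after reserves have been stored. Removing water early imposes desiccation on seeds that would still have had days of hydrated metabolism before them, and messenger RNAs that remain at the end are kept in the dry seed. In drying cells, both the synthesis and the decay of RNA slow and finally stop.

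Library totals ranged from 12881662 to 60626937 counts, both extremes being dried libraries, and the members were covered by at least 25 counts in the shallower dried library (median 78) and at least 77 in the deeper one (median 252). The choice of scale matters between these libraries. Over the 10194 genes, the median log2 difference between dried and fresh seeds of stage 7.2 was -0.28 by CPM and 0.15 after TMM scaling, a method that centres the bulk of genes, and 0.20 with DESeq2's size factors. For the members it was -1.13 by CPM, -0.75 by TMM and -0.71 by DESeq2's size factors. All values per library below are CPM unless another scale is named. In library sums, 4 oil body genes, named as oleosins or a steroleosin, had 1094 and 2150 CPM in dried seeds, against 2619 and 3514 CPM in fresh seeds of stage 7.2. A further 3 genes for light harvesting or the small subunit of Rubisco had 56.7 and 94.1 CPM in dried seeds, against 120 and 123 CPM in fresh seeds of stage 7.2. The TMM factors, by which library totals are multiplied, were 0.94 and 0.68 for the dried libraries and 1.15 and 1.05 for these fresh ones. Differences in these sums therefore depend on the scale. For 2 genes found by words for seed coat proteins, the sums were 3.96 and 2.21 CPM in dried seeds, against 3.17 and 3.33 CPM in fresh seeds of stage 7.2. No gene was named glycinin or beta-conglycinin in the tables used, so these storage proteins could not serve as a check of the embryo. The part of tissue or cell composition in the low levels of the members was not tested.

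Both dried libraries lay below every fresh library for all 150 members, as the ranking requires, and for 12.1% of the 10194 genes. Summed over the members, dried seeds had 1516 and 1156 CPM, against 2902 CPM in the lowest fresh library (stage 7.3) and 4376 CPM in the highest (stage 7.1). The median member had 6.06 and 4.16 CPM in dried seeds, against 14.8 and 12.8 CPM in fresh seeds of stage 7.2. In the 10194 genes the median was 24.7 and 18.7 CPM in dried seeds, against 26.2 and 24.7 CPM in fresh seeds of stage 7.2. The mean level after drying was 40.1% of that in fresh seeds of stage 7.2 for the median member, and ranged among members from 7.14% to 62.9%. The lowest fresh library exceeded the higher dried library by 1.41 to 2.94 times (median 1.64).

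**Figure D1:**
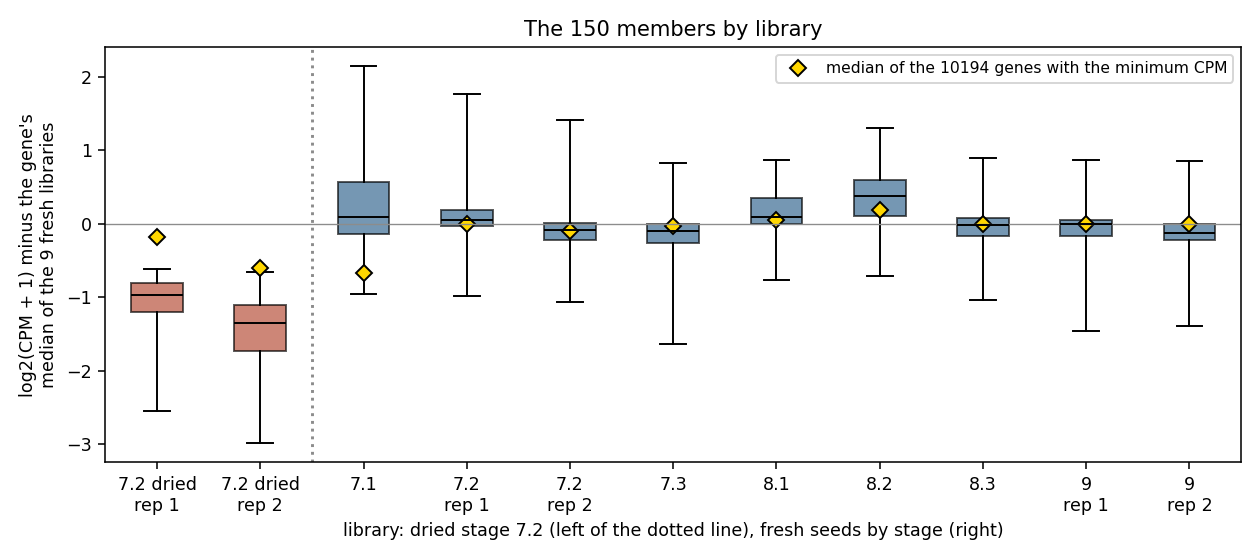
Level of the 150 members in each library, as log2(CPM + 1) minus the gene's median of the 9 fresh libraries. Boxes span the quartiles with the median as a line, whiskers reach the lowest and highest member, red boxes are the 2 dried libraries and blue boxes the fresh ones, and diamonds mark the median of the 10194 genes with the CPM minimum. Both red boxes lie below the blue ones, which the ranking fixes, and the diamonds of the dried libraries lie below 0 too.

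The members were not abundant transcripts. Their median level over the fresh libraries was 13.99 CPM, against 27.3 CPM over the 10194 genes, and 105 of the 150 had a median under 20 CPM while 4 had one above 100 CPM. They varied less over the fresh stages than other genes. The highest fresh library exceeded the lowest by a median of 2.04 times in the members and 2.96 times in the 10194 genes, which the choice of members favours, since a gene with a deep minimum in any fresh library ranks lower. The ratio was under 1.5 for 25 members and over 3 for 31. Between the dried libraries, replicate 1 was the higher by CPM in 130 of the 150 members (86.7%), with a median log2 difference of 0.39. The same held for 79.2% of the 10194 genes, with a median of 0.44. The TMM factors of these libraries, 0.94 and 0.68, lift replicate 2 against replicate 1. The order of the dried pair and how close its values lie, here and for the single genes below, can therefore depend on the scale.

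The member with the largest gap was Glyma.16G049000, whose closest Arabidopsis match is CCR-LIKE, a clock-regulated gene with an unstable transcript in Arabidopsis. It had 18.3 and 15.1 CPM in dried seeds, against 122 CPM at stage 7.1, 72.1 and 86.4 at 7.2, 51.7 at 7.3, 76.2 at 8.1, 61.3 at 8.2, 67.02 at 8.3, and 97.2 and 112 at 9. The lowest fresh library was that of stage 7.3, and it was still 2.82 times the higher dried one. The ranking continued with Glyma.13G261400, matched to ETHE1, the mitochondrial persulfide dioxygenase that takes part in the breakdown of cysteine. It had 3.57 and 2.80 CPM in dried seeds, against 19.9 CPM at stage 7.1, 13.4 and 10.5 at 7.2, 11.3 at 7.3, 25.4 at 8.1, 33.1 at 8.2, 20.9 at 8.3, and 18.1 and 16.4 at 9. Both dried libraries were low, while fresh seeds peaked at stage 8.2. Glyma.01G198500, a protein of unknown function, had 2.87 and 1.27 CPM in dried seeds, against 19.3 CPM at stage 7.1, 12.1 and 11.9 at 7.2, 7.62 at 7.3, 14.3 at 8.1, 23.7 at 8.2, 14.9 at 8.3, and 7.29 and 7.68 at 9. Its fresh levels at stages 7.3 and 9 lay close to each other and above both dried libraries.

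The members ranked 4 to 6 act on RNA or in translation. Glyma.08G184300, of the ribosomal protein L10 family, had 3.80 and 3.65 CPM in dried seeds, against 11.99 CPM at stage 7.1, 11.04 and 8.62 at 7.2, 8.69 at 7.3, 9.33 at 8.1, 12.7 at 8.2, 10.3 at 8.3, and 11.6 and 9.91 at 9. Its fresh libraries spanned only 1.48 times, and the dried pair lay close together by CPM. Glyma.14G073700, a pentatricopeptide repeat protein, a family that binds organellar transcripts, had 2.95 and 3.23 CPM in dried seeds, against 10.00 CPM at stage 7.1, 10.8 and 7.74 at 7.2, 7.37 at 7.3, 11.3 at 8.1, 15.03 at 8.2, 10.2 at 8.3, and 9.71 and 9.53 at 9. Glyma.15G056100 encodes dyskerin, the pseudouridine synthase that modifies ribosomal RNA, and had 19.95 and 10.4 CPM in dried seeds, against 45.2 CPM at stage 7.1, 58.05 and 41.8 at 7.2, 51.4 at 7.3, 70.1 at 8.1, 70.1 at 8.2, 39.99 at 8.3, and 43.9 and 43.8 at 9. Its dried libraries stood apart, replicate 1 being the higher, and both lay under the lowest fresh value, at stage 8.3.

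Among the remaining members of the first 10, Glyma.16G010200, a tetratricopeptide repeat protein, had 2.10 and 2.31 CPM in dried seeds, against a lowest, median and highest of 5.46, 6.51 and 8.76 CPM in the 9 fresh libraries. Glyma.16G001300, for which no name was found, had 1.94 and 2.13 CPM in dried seeds, against 25.01 CPM at stage 7.1, 14.8 and 11.7 at 7.2, 5.08 at 7.3, 6.27 at 8.1, 6.42 at 8.2, 6.52 at 8.3, and 5.18 and 5.02 at 9. Its levels at stages 7.1 and 7.2 stood apart from the later ones, which lay between 5.02 and 6.52 CPM, and dried seeds lay below both. Glyma.19G076300, a SET domain protein, had 6.75 and 4.29 CPM in dried seeds, against a lowest, median and highest of 13.8, 15.6 and 19.98 CPM in the 9 fresh libraries. Glyma.04G066900, an EIN3-binding F-box protein that in Arabidopsis marks the ethylene transcription factor EIN3 for degradation, is described with its related gene below.

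**Figure D2:**
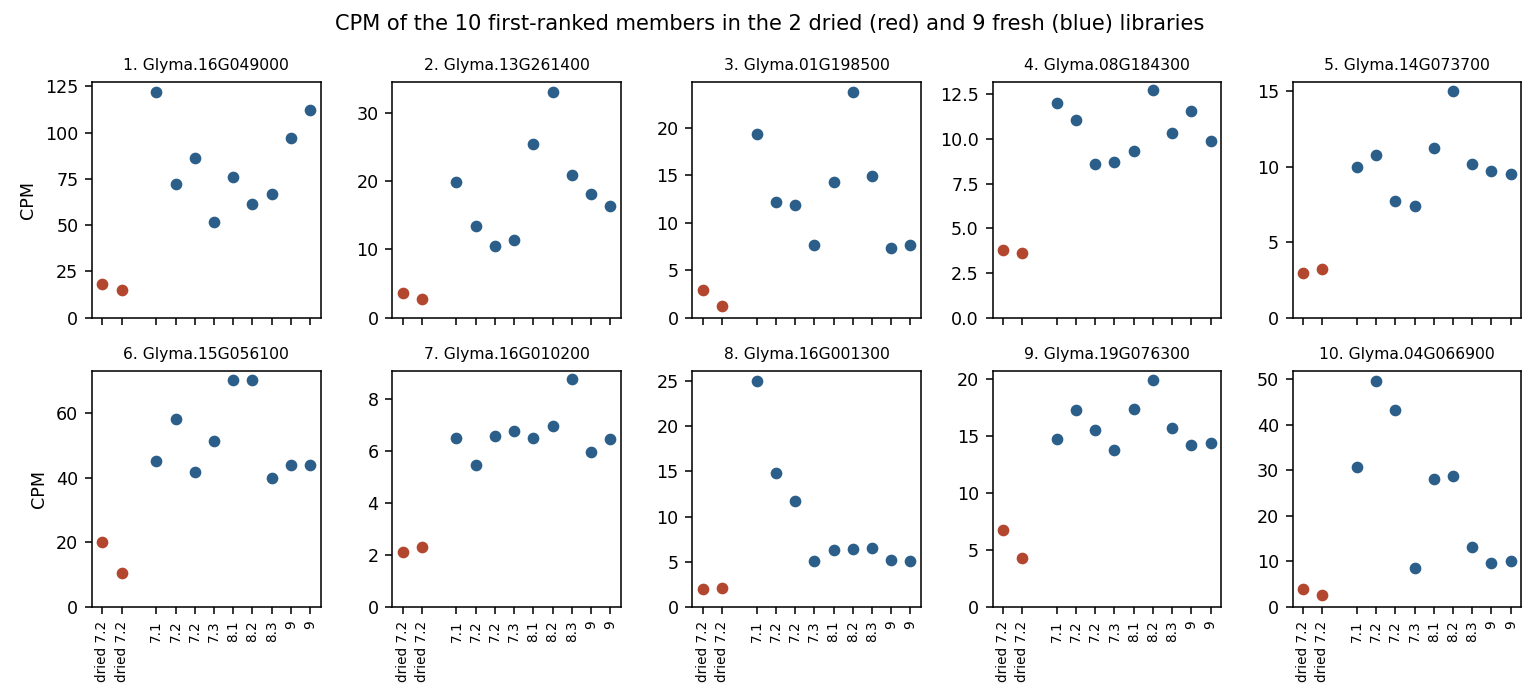
CPM of the 10 first-ranked members in each library, with the 2 dried libraries of stage 7.2 in red on the left and the 9 fresh libraries in blue in the order of the stages, each panel on its own axis from 0. In every panel both red points lie below all blue points, as the ranking requires, and the blue points differ in shape between genes, with stages 7.1 and 7.2 highest in Glyma.16G001300 and stage 8.2 highest in Glyma.13G261400.

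At the edge of the ranking the gaps were small. The last 3 members, Glyma.11G014400, Glyma.09G196600 and Glyma.14G024700, had a difference of 0.477155, 0.476769 and 0.476667 on the log2(CPM + 1) scale, and the next 3 genes, Glyma.18G075400, Glyma.04G162800 and Glyma.13G268000, had 0.476025, 0.475336 and 0.473511. Inside the limit, Glyma.14G024700 had 5.98 and 4.49 CPM in dried seeds, against a lowest, median and highest of 8.71, 10.1 and 19.4 CPM in the 9 fresh libraries. Outside it, Glyma.18G075400 had 8.15 and 8.18 CPM in dried seeds, against a lowest, median and highest of 11.8, 15.2 and 18.7 CPM in the 9 fresh libraries. The limit of 150 thus separates genes that hardly differ.

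Names were found for 53 of the 150 members, and all 53 stand in the study's list of genes higher at stage 9 than in dried seeds, since the tables used give names for selected genes only. The named members are therefore those with the clearer difference from stage 9, and the other 97 are described by number. They are grouped here by role, a grouping made after their names and values were seen.

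Members that act on RNA or in translation numbered 12, with dried seeds at 22.1% to 47.0% of fresh seeds of stage 7.2 (median 34.9%). Besides the 3 genes above, the mitochondrial RNA helicase Glyma.08G303000 had 2.56 and 1.68 CPM in dried seeds, against a lowest, median and highest of 5.18, 9.21 and 16.5 CPM in the 9 fresh libraries. For Glyma.06G172400, a plastid RNA-binding protein, the values were 6.99 and 3.63 CPM in dried seeds, against a lowest, median and highest of 12.9, 18.2 and 27.5 CPM in the 9 fresh libraries. Both are organellar proteins encoded in the nucleus, and both had replicate 1 as the higher dried library by CPM. Of the enzymes, glycyl-tRNA synthetase (Glyma.08G363700), which charges transfer RNA with glycine, had 16.5 and 8.02 CPM in dried seeds, against a lowest, median and highest of 28.9, 34.8 and 58.2 CPM in the 9 fresh libraries. Ribonuclease E (Glyma.02G223400), which cuts transcripts in plastids, had 3.34 and 1.81 CPM in dried seeds, against a lowest, median and highest of 6.26, 8.94 and 11.9 CPM in the 9 fresh libraries. The most abundant gene of the group, a subunit of the translation initiation factor iso-4F (Glyma.17G072500), which binds the cap of messenger RNAs, had 31.3 and 15.8 CPM in dried seeds, against a lowest, median and highest of 47.04, 54.7 and 95.8 CPM in the 9 fresh libraries. By CPM, the dried libraries of these genes stood further from the fresh range in replicate 2 than in replicate 1. The group also held 2 parts of the spliceosome. The small nuclear ribonucleoprotein gene Glyma.20G204200 had 4.11 and 3.81 CPM and the U5 component Glyma.17G105700 had 8.31 and 4.29 CPM in dried seeds, against a lowest fresh value of 7.83 and 12.7 CPM. The CRS1 gene Glyma.07G092300, named after a maize factor for splicing of a plastid intron, and a further pentatricopeptide repeat gene, Glyma.08G006700, complete the group, with dried seeds at 37.7% and 35.7% of fresh seeds of stage 7.2.

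Genes for protein degradation by ubiquitin numbered 5. Both EIN3-binding F-box genes were members, the only genes with this Arabidopsis match in the tables used. Glyma.04G066900 had 3.96 and 2.66 CPM in dried seeds, against 30.6 CPM at stage 7.1, 49.5 and 43.1 at 7.2, 8.45 at 7.3, 28.1 at 8.1, 28.6 at 8.2, 13.2 at 8.3, and 9.60 and 10.1 at 9. Glyma.06G068400 had 6.06 and 3.02 CPM in dried seeds, against 28.7 CPM at stage 7.1, 55.6 and 48.96 at 7.2, 11.2 at 7.3, 29.5 at 8.1, 39.8 at 8.2, 16.1 at 8.3, and 14.2 and 14.5 at 9. These genes had parallel profiles: fresh seeds of stage 7.2 were highest, stage 7.3 was lowest, and dried seeds stood at 7.14% and 8.67% of fresh seeds of stage 7.2. Only the unnamed Glyma.02G278300, at 7.21%, lay between them, and all other members were at 15.4% or more. Such related soybean genes can share reads, which makes the level of each uncertain. The RING/U-box gene Glyma.05G209600 had 3.11 and 1.95 CPM in dried seeds, against a lowest, median and highest of 5.92, 8.24 and 23.3 CPM in the 9 fresh libraries. The other ligase genes had higher shares left after drying. For Glyma.08G358300, an orthologue of the ligase XB3 from rice, the values were 8.69 and 8.48 CPM in dried seeds, against a lowest, median and highest of 14.6, 20.8 and 48.5 CPM in the 9 fresh libraries. Cullin 3 (Glyma.19G021600), a scaffold of ubiquitin ligases, had 14.1 and 10.2 CPM in dried seeds, against a lowest, median and highest of 23.1, 33.99 and 52.1 CPM in the 9 fresh libraries.

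Receptors, kinases and an auxin factor made up 7 members. The cytokinin receptor gene Glyma.14G007100, a histidine kinase, had 3.73 and 1.68 CPM in dried seeds, against 21.9 CPM at stage 7.1, 15.3 and 12.5 at 7.2, 10.9 at 7.3, 12.9 at 8.1, 17.5 at 8.2, 9.91 at 8.3, and 6.73 and 6.54 at 9. Its fresh levels at stage 9 were the lowest of the fresh series but remained above the dried pair. Phytochrome B (Glyma.15G140000), a receptor for red light that promotes germination in Arabidopsis, had 3.80 and 2.00 CPM in dried seeds, against 22.5 CPM at stage 7.1, 6.92 and 6.16 at 7.2, 7.08 at 7.3, 16.7 at 8.1, 22.1 at 8.2, 9.82 at 8.3, and 12.5 and 11.04 at 9. Auxin response factor 8 (Glyma.14G032700), a transcription factor, had 4.66 and 2.97 CPM in dried seeds, against a lowest, median and highest of 7.33, 9.45 and 14.8 CPM in the 9 fresh libraries. The protein kinase genes Glyma.07G132500 and Glyma.15G096800 and the receptor-like kinase gene Glyma.09G273300 had 2.95 and 1.60 CPM, 5.59 and 3.38 CPM and 9.39 and 3.15 CPM in dried seeds, against a lowest fresh value of 5.13, 8.99 and 14.2 CPM. The last of these showed a wide spread between its dried libraries.

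Redox and transport genes numbered 8. Besides the persulfide dioxygenase above, 2 genes matched the cytosolic ascorbate peroxidase APX1, which removes hydrogen peroxide, and they were the only genes with this match in the tables used. Glyma.12G073100 had 7.61 and 4.59 CPM in dried seeds, against 16.9 CPM at stage 7.1, 17.8 and 14.2 at 7.2, 13.9 at 7.3, 23.4 at 8.1, 33.9 at 8.2, 44.5 at 8.3, and 43.7 and 43.1 at 9. Glyma.U021900 had 3.57 and 2.80 CPM in dried seeds, against 28.1 CPM at stage 7.1, 10.2 and 8.05 at 7.2, 6.40 at 7.3, 7.17 at 8.1, 11.1 at 8.2, 20.04 at 8.3, and 15.9 and 15.1 at 9. In both, dried seeds were lowest and stages 8.3 and 9 exceeded fresh seeds of stage 7.2, but at stage 7.1 Glyma.U021900 was at its highest and Glyma.12G073100 was not. For the glycerol-3-phosphate transporter Glyma.12G013200 the values were 6.91 and 5.69 CPM in dried seeds, against a lowest, median and highest of 12.6, 41.4 and 64.8 CPM in the 9 fresh libraries. Among fresh seeds this gene was lowest at stage 7.3. The calcium-transporting ATPase gene Glyma.03G175200 had 6.13 and 3.94 CPM in dried seeds, against a lowest, median and highest of 10.8, 15.5 and 30.1 CPM in the 9 fresh libraries. Glyma.10G146600, of the ferroportin family of iron exporters, had 6.37 and 3.22 CPM in dried seeds, against a lowest, median and highest of 12.5, 14.3 and 20.5 CPM in the 9 fresh libraries. The ABC transporter genes Glyma.08G194600 and Glyma.06G191300 stood at 22.6% and 15.6% of fresh seeds of stage 7.2 after drying.

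Enzymes of metabolism and plastid proteins numbered 11. In nitrogen and amino acid metabolism, NADH-dependent glutamate synthase (Glyma.04G236900) had 4.19 and 2.67 CPM in dried seeds, against a lowest, median and highest of 7.72, 20.6 and 67.4 CPM in the 9 fresh libraries, the widest span over the fresh stages among all members (8.73 times). Acetolactate synthase (Glyma.04G196100), which opens the synthesis of branched-chain amino acids, had 4.89 and 3.48 CPM in dried seeds, against a lowest, median and highest of 9.08, 12.3 and 20.9 CPM in the 9 fresh libraries. A gene of purine synthesis, Glyma.18G036300, had 3.88 and 1.86 CPM in dried seeds, against a lowest, median and highest of 7.02, 13.4 and 24.8 CPM in the 9 fresh libraries. In these 3 genes the lowest fresh library was 1.81 to 1.86 times the higher dried one. In lipid and wall metabolism, acyl-CoA oxidase 2 (Glyma.05G180100), which starts the oxidation of fatty acids in peroxisomes, had 7.92 and 4.39 CPM in dried seeds, against a lowest, median and highest of 14.7, 16.3 and 23.9 CPM in the 9 fresh libraries. The xyloglucan endotransglucosylase Glyma.13G095000, which remodels the cell wall, had 10.7 and 8.10 CPM in dried seeds, against a lowest, median and highest of 19.4, 33.7 and 43.02 CPM in the 9 fresh libraries. In plastid pathways, carotenoid isomerase (Glyma.02G188200) had 6.29 and 3.58 CPM and the reductase that ends the plastid isoprenoid pathway (Glyma.12G046000) had 7.84 and 7.14 CPM in dried seeds, against a lowest fresh value of 9.66 and 11.9 CPM. Of these 2 genes, the reductase had close values in the dried pair by CPM. The photosystem I subunit Glyma.18G241700 had 5.51 and 2.33 CPM in dried seeds, against a lowest, median and highest of 9.56, 14.9 and 23.7 CPM in the 9 fresh libraries. The RELA/SPOT homologue Glyma.03G216400 had 7.14 and 3.76 CPM in dried seeds, against a lowest, median and highest of 11.4, 16.1 and 24.6 CPM in the 9 fresh libraries. Of the other named members, a histone H2B gene (Glyma.11G141600) had 3.80 and 3.35 CPM in dried seeds, against 35.8 CPM at stage 7.1, 9.95 and 8.24 at 7.2, 6.98 at 7.3, 23.7 at 8.1, 32.4 at 8.2, 22.9 at 8.3, and 18.3 and 17.1 at 9. Its level was high at stage 7.1 and from stage 8.1 on, and low at stages 7.2 and 7.3.

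**Figure D3:**
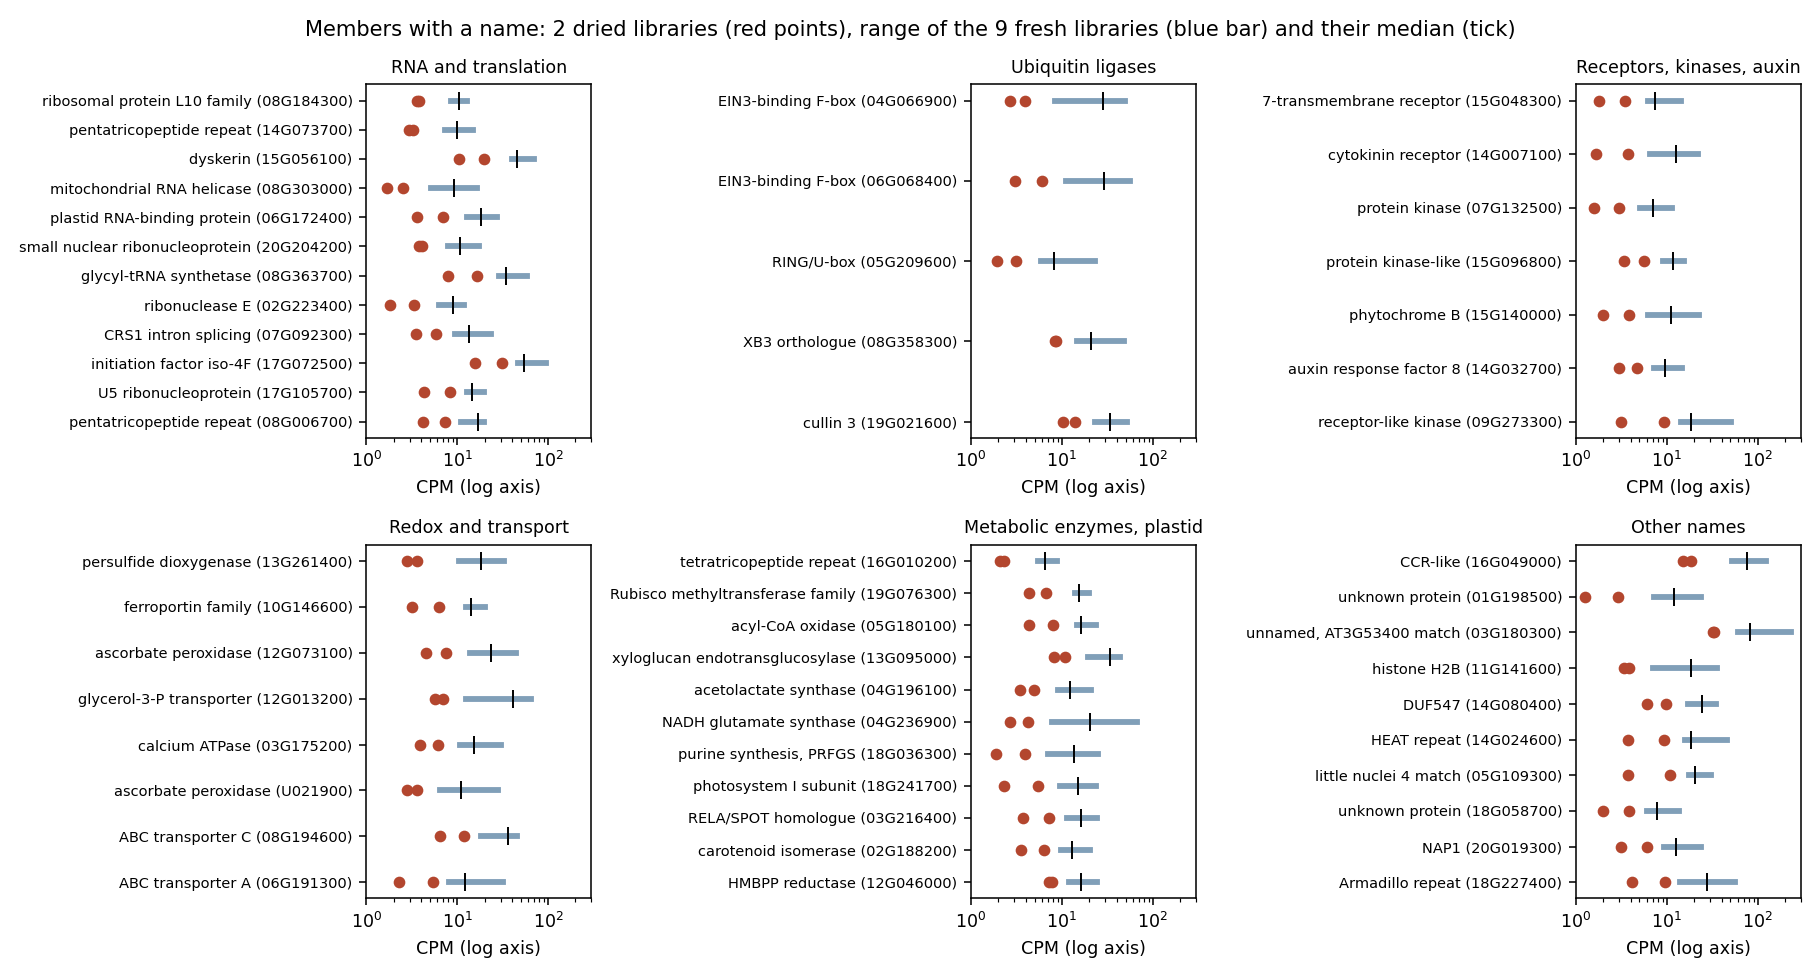
The 53 members with a name, by group. Red points are the 2 dried libraries, the blue bar spans the lowest to the highest of the 9 fresh libraries and the tick marks their median, all in CPM on a log axis. Every red point lies left of its bar, as the ranking requires, and the fresh bar is widest for NADH glutamate synthase, at 8.73 times.

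The names were also sorted into 21 word lists, of which 3 held at least 3 members. Ubiquitin ligases and F-box proteins had 4 members among 33 named genes with the CPM minimum. Over these 33 genes the median log2 difference between dried and fresh seeds of stage 7.2 was -0.0096 by CPM, and 17 lay below 0. Transporters and ATPases had 4 members among 14 such genes, with a median of -0.79 and 11 below 0. Protein kinases had 4 members among 19, with a median of -0.35 and 11 below 0. The median over all 10194 genes was -0.28. Heat shock proteins had 0 members among 21 genes (median 0.13), ribosome biogenesis had 0 among 15 (median -0.25), late embryogenesis abundant proteins had 0 among 6 (median -0.089) and the list of storage proteins, of which only oil body genes met the CPM minimum, had 0 among 4 (median -1.05). These counts depend on the words searched. The dyskerin gene Glyma.15G056100, a member whose protein modifies ribosomal RNA, matched none of the lists, so the 0 for ribosome biogenesis does not mean that the class is absent. For scale, the members were 150 of the 10194 genes, but their share among all named genes with the CPM minimum was not computed. All named members stand in the study's list of genes higher in mature than in dried seeds. Whether a list holds more members than other named genes was therefore not tested. Since only selected genes carry a name, the counts per list describe the named genes and not the classes.

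The members were spread over all 20 chromosomes by their identifiers, from 3 on chromosome 20 to 13 on chromosome 8, with 1 on an unplaced sequence. A single pair had adjoining identifiers, Glyma.14G024600, a HEAT repeat protein at rank 53, and Glyma.14G024700 at rank 150.

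Over the fresh stages the members shared no single profile. By CPM, 65 members (43.3%) were highest at stage 8.2, 46 (30.7%) at stage 7.1 and 19 (12.7%) at stage 8.1, against 36.7%, 12.4% and 9.47% of the 10194 genes. After TMM scaling 39 members were highest at stage 8.2 and 55 at stage 7.1. Shares of the 10194 genes were not computed on that scale, so these counts show only that the leading stage depends on the scale. The lowest fresh library was replicate 2 of stage 7.2 for 33 members (22%), stage 7.3 for 30 (20%) and stage 7.1 for 22 (14.7%). Over the 10194 genes these shares were 8.12%, 4.84% and 59.3%. A gene that is low at stage 7.1 can rank high only if it is lower still after drying, so these shares are shaped by the choice of members. Between successive stages, 55 of the 150 members were higher at stage 7.2 than at 7.1 by CPM (median log2 difference -0.14, against 0.57 over the 10194 genes) and 46 were higher at 7.3 than at 7.2 (-0.10, against 0.028). After TMM scaling these numbers were 41 (-0.22, against 0.49) and 76 (0.0070, against 0.14), so the direction of the step to stage 7.3 depends on the scale. Further on by CPM, 125 of the 150 members were higher at stage 8.1 than at 7.3 (median log2 difference 0.26), 119 were higher at 8.2 than at 8.1 (0.22) and 15 were higher at 8.3 than at 8.2 (-0.46). These last 3 differences had a median of 0.18, 0.10 and -0.23 over the 10194 genes. After TMM scaling the number of members higher was 102, 95 and 47, with medians of 0.15, 0.11 and -0.21, against 0.061, -0.018 and 0.042 over the 10194 genes. From stage 8.3 to 9, 64 members were higher by CPM (median -0.057, against -0.013 over the 10194 genes) and 66 by TMM (-0.034, against 0.010). In the order of the stages, the shares of the 10194 genes that were higher at each step were 77.3%, 53.5%, 64.3%, 62.5%, 28.0% and 47.8% by CPM. After TMM scaling they were 73.4%, 66.3%, 54.9%, 47.4%, 54.5% and 51.7%. The counts of members thus partly follow shifts of all genes. Stages 7.1, 7.3, 8.1, 8.2 and 8.3 had 1 library each, so these steps have no replicate check.

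Dried seeds of stage 7.2 were set against fresh seeds of the same stage by edgeR's quasi-likelihood fit on the 4 libraries, with TMM scaling, to put the members on the scale of all genes. Since the ranking used these libraries, no p is given, and the counts of members only describe where the chosen genes lie in this fit. At a log2 fold change of at least 1 in size and an adjusted p under 0.05, 46 of the 150 members were past the limits as lower and 0 as higher, where 17.9% of all genes tested and 3.69% of the 10194 genes were past them as lower. By column sums alone the number of members was 122, where 31.9% of all genes tested and 13.4% of the 10194 genes were past the limits as lower. The median log2 fold change of the members was -0.80, against 0.26 over the 10194 genes. Without replicate 1 or 2 of the fresh seeds of stage 7.2, 25 and 28 members were past the limits, where 8.51% and 8.79% of all genes tested were past them as lower. For stage 9 against dried seeds, a comparison that uses the same dried libraries, 43 members were past the limits as higher and 0 as lower, where 2.76% of all genes tested and 2.39% of the 10194 genes were past them as higher. The median log2 fold change was 0.91 in the members and 0.038 in the 10194 genes. That no member lay on the other side of the limits in either comparison follows from the ranking. When replicate 1 or replicate 2 of stage 9 was left out, 0 of all 26678 and 27949 genes tested passed the limits in edgeR (3198 and 3898 had an unadjusted p under 0.05), so these fits say nothing about the members. Without replicate 1 of the dried seeds 69 members were past the limits as higher, where 7.13% of all genes tested were.

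The comparison of stage 9 with fresh seeds of stage 7.2 asks how the members changed when seeds finished maturation on the plant. These 4 libraries entered the ranking only as 4 of the 9 fresh ones, where the choice of members holds both stages above the dried level. With edgeR's quasi-likelihood test and Benjamini-Hochberg adjustment over 29707 genes, 5 of the 150 members rose and 8 fell. In all genes tested, 17.8% rose and 27.1% fell, and in the 10194 genes with the CPM minimum 18.9% rose and 7.41% fell. The median log2 fold change was 0.11 in the members and 0.30 in the 10194 genes, on the TMM scale. By column sums it was -0.088 in the members and 0.11 in the 10194 genes, so the sign of the median depends on the scale. In that fit 3 members were higher and 11 lower (2.00% and 7.33%), where 12.9% of the 10194 genes were higher and 10.5% lower. With the fit restricted to the 10194 genes the median was -0.21 in the members and -0.017 in all. There 1 member was higher and 13 were lower (0.667% and 8.67%), where 9.97% of the 10194 genes were higher and 12.8% lower.

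**Figure D4:**
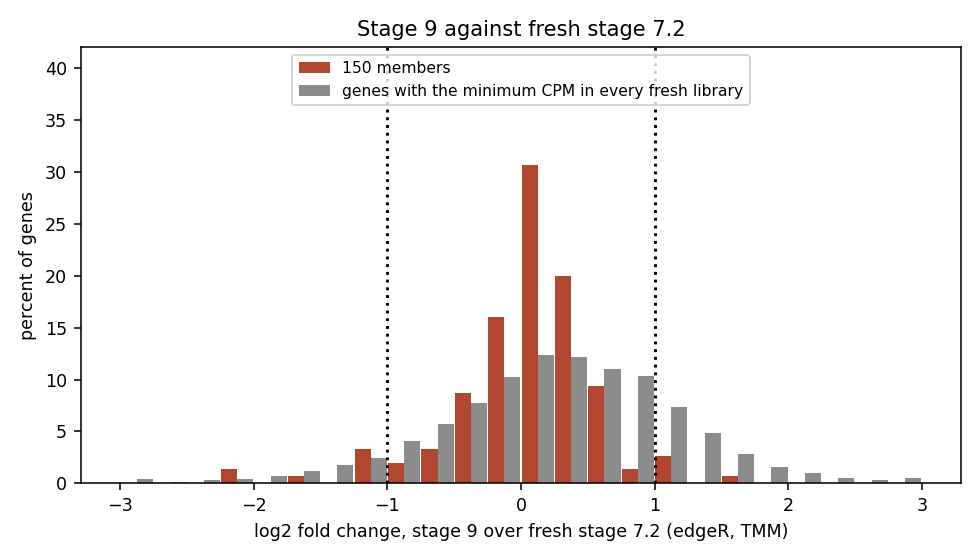
Distribution of the log2 fold change of stage 9 over fresh seeds of stage 7.2 (edgeR, TMM scaling), as percent of the 150 members (red) and of the 10194 genes with the CPM minimum (grey), in steps of 0.25 with values beyond 3 placed in the outer steps. The dotted lines mark a 2-fold difference, past which 5 members lie on the right and 8 on the left, and the members lie closer to 0 than the other genes, which the choice of members favours, since a gene low at either stage ranks lower.

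Of the genes that rose, the cytosolic ascorbate peroxidase Glyma.12G073100 changed most. It had 43.7 and 43.1 CPM at stage 9, against 17.8 and 14.2 in fresh seeds of stage 7.2 (log2 fold change 1.64, standard error 0.0971, adjusted p = 5.20e-08 from edgeR). The Armadillo repeat gene Glyma.18G227400 had 31.6 and 27.6 CPM at stage 9, against 15.2 and 13.99 in fresh seeds of stage 7.2 (log2 fold change 1.22, standard error 0.0977, adjusted p = 5.47e-07 from edgeR). The glycerol-3-phosphate transporter Glyma.12G013200 had 42.1 and 41.4 CPM at stage 9, against 20.5 and 21.1 in fresh seeds of stage 7.2 (log2 fold change 1.20, standard error 0.0913, adjusted p = 3.56e-07 from edgeR). Histone H2B (Glyma.11G141600, log2 fold change 1.16) and phytochrome B (Glyma.15G140000, 1.05) also rose. Without replicate 1 of stage 9 the value of Glyma.15G140000 was 0.99, and by column sums those of Glyma.11G141600 and Glyma.15G140000 were 0.96 and 0.85, under the fold limit. With the fit restricted to the 10194 genes, Glyma.18G227400 and Glyma.12G013200 had 0.90 and 0.88 and Glyma.11G141600 and Glyma.15G140000 had 0.84 and 0.73, so that of the 5 genes only Glyma.12G073100 stayed past the fold limit. In each of the 5 genes, both stage 9 libraries lay above both fresh libraries of stage 7.2, while dried seeds lay below both, as the ranking requires. The other APX1 gene, Glyma.U021900, had 15.9 and 15.1 CPM at stage 9, against 10.2 and 8.05 in fresh seeds of stage 7.2, with a log2 fold change of 0.96 that missed the fold limit.

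Of the genes that fell, Glyma.02G278300, for which no name was found, changed most. It had 7.63 and 5.21 CPM at stage 9, against 39.3 and 30.4 in fresh seeds of stage 7.2 (log2 fold change -2.22, standard error 0.152, adjusted p = 1.53e-07 from edgeR), and 2.95 and 2.08 CPM in dried seeds. Both EIN3-binding F-box genes fell. Glyma.04G066900 had 9.60 and 10.1 CPM at stage 9, against 49.5 and 43.1 in fresh seeds of stage 7.2 (log2 fold change -2.04, standard error 0.0975, adjusted p = 1.15e-08 from edgeR). Glyma.06G068400 had 14.2 and 14.5 CPM at stage 9, against 55.6 and 48.96 in fresh seeds of stage 7.2 (log2 fold change -1.67, standard error 0.0906, adjusted p = 2.78e-08 from edgeR). The ABC transporter gene Glyma.06G191300 had a log2 fold change of -1.08, and the unnamed genes Glyma.16G001300, Glyma.13G162800, Glyma.09G285100 and Glyma.06G034400 had -1.18, -1.09, -1.04 and -1.01. Several of these values were near the fold limit. Without replicate 2 of stage 9, those of Glyma.06G191300, Glyma.09G285100 and Glyma.06G034400 were -0.79, -0.98 and -0.92, and without replicate 2 of fresh stage 7.2 that of Glyma.06G191300 was -0.85. The number that fell also depended on the method. It was 6 in DESeq2 and 6 with its size factors in edgeR, where 6.87% and 6.88% of the 10194 genes fell. With all 11 libraries in 1 fit it was 7, where 7.07% of the 10194 genes fell. By column sums and with the restricted fit it was larger, as given above.

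By role, 0 of the 12 genes for RNA and translation and 0 of the 11 metabolic and plastid genes passed the limits in edgeR, with 7 and 6 of them at an unadjusted p under 0.05, where 75.4% of all genes tested were, and 0 in each group passed in DESeq2. Their log2 fold changes ranged from -0.32 to 0.56 and from -0.93 to 0.90. Of the 8 redox and transport genes 2 rose and 1 fell, of the 5 ubiquitin ligase genes 2 fell, and of the 7 receptor, kinase and auxin genes 1 rose. In the 10194 genes with the CPM minimum 18.9% rose and 7.41% fell. The roles were drawn up after the values were seen and the groups are small, so these counts are no result about a role. The 97 members without a name had 5 that fell and 0 that rose in edgeR, and 3 that fell and 0 that rose in DESeq2. In edgeR 47 of them had an unadjusted p under 0.05, against the same 75.4% of all genes tested. Every named member stands in the study's list of genes higher in mature than in dried seeds, which favours names for members that rose. The split of rises and falls between named and unnamed members, and among the roles, is therefore shaped by the naming and was not tested.

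Membership depended on how the ranking was built. On the TMM scale 112 of the 150 members stayed among the first 150 genes and on the scale of DESeq2's size factors 110 did. Both dried libraries remained below every fresh library for 141 and 139 of the 150 members on these scales. The same held for 5.18% and 5.13% of the 10194 genes, fewer than the 12.1% by CPM. With dried replicate 2 alone (replicate 1 left out) 63 members stayed, and with dried replicate 1 alone 119 stayed. With a minimum of 10 CPM only 76 members could enter the ranking. All 76 were among its first 150, which was fixed in advance, since a higher minimum only removes genes and leaves the order of the others.

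**Figure D5:**
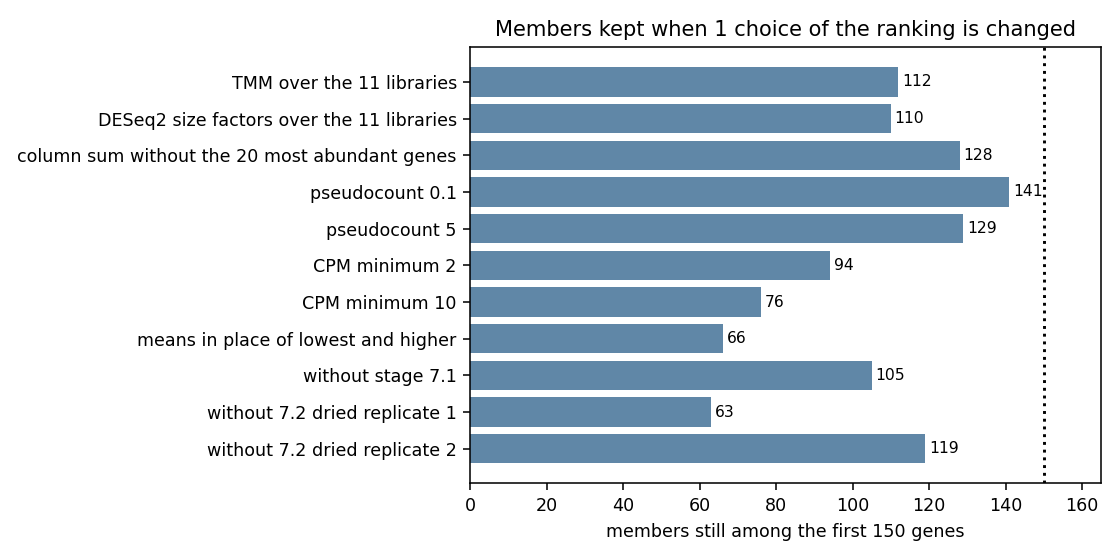
Number of the 150 members that stayed among the first 150 genes when a single choice of the ranking was changed. Bars show the count for each setting, from 63 without dried replicate 1 to 141 with a pseudocount of 0.1, and the dotted line marks 150.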

How the data were processed

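Whole-seed RNA was sequenced in 11 libraries (TruSeq, single-end reads of 100 bases). After removing adaptors and low complexity reads, the authors mapped with Bowtie2 to the Williams 82 genome (Glyma.Wm82.a1.0) and deposited raw counts for 56044 genes; the counting program is not given in the sources used here. The single line without a gene held 0 counts. Columns were matched to samples by name. CPM used column sums. Python 3.11.15 computed the ranking and R 4.3.3 with edgeR 4.0.16 (limma 3.58.1) the comparisons, each on its own 4 libraries with filterByExpr, TMM scaling and the two-sided quasi-likelihood test; DESeq2 1.42.0 was an alternative. A call required a 2-fold difference (log2 fold change of 1) together with an adjusted p below 0.05 (Benjamini-Hochberg). The fits were tested on simulated data.

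The study calls its replicates biological; what was kept separate between them (plants, harvest or extraction) is not given in the sources used here, so p-values measure the spread between these libraries. The members and lists were chosen with earlier results of these data known. Genes named by rule are the first 10 in rank, the last 3 members and the next 3 genes, the 3 highest-ranked members of each list with at least 3, and the 3 largest called changes each way at stage 9; others with a known name were chosen after their values were seen. Names come from the study's supplementary tables, 2 of them held here in part, whose values and fold changes were not used. No identifier matched the reference gene table. The alternatives concern scaling, filters, thresholds, the replicate term, left-out libraries and the choices of the ranking.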

Additional observations from a re-analysis of the deposited data

How the results depend on the processing

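For stage 9 against fresh stage 7.2, 13 members were called (5 higher, 8 lower). Without a fold threshold 74 were (48 higher, 26 lower; 32.0% and 17.3%), where 52.7% of the 10194 genes were higher and 24.8% lower. By column sums 3 were higher, where 12.9% of the 10194 genes were. With the CPM minimum as filter 1 was higher and 13 were lower, where 9.97% of the 10194 genes were higher and 12.8% lower. The median log2 fold change of the members was 0.11, against -0.088 by column sums and -0.21 with the CPM minimum. Leaving out each library in turn gave 11 to 15 members, 4 to 6 higher and 5 to 9 lower, with the fewest lower ones without replicate 2 of stage 9. For dried against fresh stage 7.2, 46 members were past the limits, 122 by column sums, and 25 to 57 when each library was left out. For stage 9 against dried seeds 43 were, 66 without a filter on low counts, and 0 to 69 when each library was left out (the 0 held for all genes tested without either stage 9 library), where a lone library was assumed to vary like the others. With the replicate block the counts were 13, 48 and 57 in these comparisons, and same-numbered libraries deviated together only weakly (correlations of 0.23, 0.14 and 0.18 over 10194 genes, with 2 pairs each). Of the 150 members, 94 were kept with a CPM minimum of 2, 76 with one of 10 (all that met it, as had to follow), 66 with means in place of the lowest and higher library, and 63 to 119 without a dried replicate. Of the 13 called genes, 6 stayed called under every alternative of that comparison and 7 lost the call under at least 1; 0 of the 390 values of the 30 genes followed changed sign with a call. TMM, DESeq2's size factors and sums without the 20 most abundant genes as scales for the overlap with fresh libraries were chosen after seeing the data. Promoter motifs, duplicate copies and the check of coding length and base composition were not run, since no genome, promoter or protein sequence matched to these identifiers was used here. With a median of 78 counts of the members in the shallower dried library, counting error limits the order of the ranking.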
